A study of Caenorhabditis elegans with 4 samples.

Results

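Distal autosomal sites between genes are regions recovered with tagged K09A11.1 that lie away from promoters, outside protein-coding genes and outside the neighbourhood of small RNA genes. From the pooled list, the 3000 nuclear regions of highest signal were taken. A region was a member if its summit lay on chromosomes I to V and more than 200 bp from any tRNA, snoRNA, snRNA or miRNA gene. It also had to lie outside every protein-coding gene body and outside every promoter window, which reached from 1000 bp before a protein-coding 5′ end to 200 bp past it. These conditions left 474 of the 3000 regions, out of 30000 in the pooled list. The rest of the 3000 were 1338 promoter sites, 333 sites at small RNA genes, 619 distal autosomal sites inside genes, 97 distal sites inside genes on X and 139 distal sites between genes on X. The members were selected on their pooled signal and location, so both are given below as description only, and no p-value was computed over the sites.

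The libraries came from whole Caenorhabditis elegans hermaphrodites, late embryonic, of strain OP372, which has the genotype unc-119(tm4063) III; wgIs372. The strain stably expresses K09A11.1 from a transgene with GFP and FLAG at the C terminus. Chromatin was sonicated and precipitated with an antibody to GFP. All 4 libraries form 1 group, with 2 biological replicates of 2 technical libraries, and every list was called against the same control. The age of the embryos is given as unknown, and whole animals were used, so the cell types behind a site cannot be told apart. The lists hold no read counts, so the sequencing depth is unknown.

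Chromatin immunoprecipitation with sequencing recovers DNA that was close to a tagged protein at the time of fixation, and the summit marks the position of highest recovery. K09A11.1 is annotated as a BED-type domain protein. BED domains are zinc-binding folds, known from insect and other chromatin proteins to bind DNA. The worm genome is compact, and sequence between its genes holds promoters, enhancers, transposon remnants and unannotated or noncoding transcripts. The lists do not show which gene, if any, a distal site acts on, so genes are named here only as neighbours.

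Signal, the authors' enrichment value for each region, ran from 16.1 to 91.9 among the 474 sites, with a median of 19.3 and quartiles of 17.3 and 24.6. The last site inside the selection had 16.08, and the next region that met the same location conditions had 16.06, so the lower edge cuts through a continuous range. All 474 regions were 340 bp wide with the summit at their centre. The highest of them ranked 51 among nuclear regions. The authors' q-value was 0.05 or less for 132 of the sites (27.8%), beside 35.6% of all 3000 regions, and its median was 0.212. Most of the sites therefore had a q-value above 0.05. Of the 474, 65 (13.7%) were rows of the thresholded list, beside 22.1% of all 3000 regions. That list is the top of the pooled list by signal, so this share repeats the ranking that chose the sites.

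The strongest site, site1, lay on chromosome II 1002 bp upstream of dhs-8, which encodes a short-chain dehydrogenase. Its signal was 91.9 in the pooled list, 62.2 in replicate 1 and 29.0 in replicate 2. It thus sat at the very edge of the promoter window, in the gap between cysl-2 and dhs-8, which are transcribed away from each other. Site2 on chromosome V, 4832 bp from the 5′ end of cmd-1, the calmodulin gene, had a pooled signal of 85.9 and 55.3 in replicate 1. No replicate 2 summit lay within 100 bp of site2, and the nearest one within 200 bp had a signal of 31.0. Site2 overlapped the neighbourhood of the long noncoding gene linc-128.

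Site4, 3424 bp from rho-1, a small GTPase of the cytoskeleton, had signals of 65.6 pooled, 48.5 in replicate 1 and 17.9 in replicate 2. Site5, in the gap of 1433 bp between mtm-3, a myotubularin-family phosphatase, and xbx-5, had 60.6, 35.4 and 28.3 in the same order. At both sites replicate 1 exceeded replicate 2, as it did at most listed sites. Site7, near the chemoreceptor gene str-182, had 58.2 pooled but only 5.51 in replicate 2 against 52.6 in replicate 1. Site8 had 57.9 pooled, 35.8 in replicate 1 and 19.3 in replicate 2, and lay in a gap of 350 bp between the converging ends of aagr-1 and D2096.7.

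The sequences at the summits of 5 of these sites are shown because they carry some of the highest signals and differ in sequence. Each is the 101 bp centred on the summit, on the plus strand of WBcel235 from RefSeq. Capitals mark the words searched for below, which were GAGAGA on either strand and the B box word of tRNA genes, spelled GTTCNANNC. The windows are chrII:14496974-14497074 for site1, chrV:1151389-1151489 for site2, chrIII:3801571-3801671 for site5, chrV:10235677-10235777 for site7 and chrIV:8375546-8375646 for site8.
site1: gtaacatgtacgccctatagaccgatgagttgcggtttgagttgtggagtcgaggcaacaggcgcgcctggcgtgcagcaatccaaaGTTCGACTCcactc
site2: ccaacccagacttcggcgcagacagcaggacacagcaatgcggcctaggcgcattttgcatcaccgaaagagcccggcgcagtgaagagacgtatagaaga
site5: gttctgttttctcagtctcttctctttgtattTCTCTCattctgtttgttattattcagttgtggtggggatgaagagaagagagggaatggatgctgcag
site7: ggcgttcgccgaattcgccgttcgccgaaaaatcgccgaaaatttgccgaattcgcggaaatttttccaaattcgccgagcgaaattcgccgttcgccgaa
site8: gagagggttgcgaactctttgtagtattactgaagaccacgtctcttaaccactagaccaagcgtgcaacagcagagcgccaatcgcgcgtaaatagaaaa
Site1 holds a B box word, site5 holds the GA word, and 18.6% of the 32-base words of site7 are found elsewhere in the genome. Site2 and site8 hold none of the marked words.

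Site3 (chrI:12039795-12040134), 1070 bp from F58D5.5, had signals of 72.3 pooled, 47.5 in replicate 1 and 24.0 in replicate 2. Among the 25 sites of highest signal, all were listed in replicate 1 and 21 in replicate 2. The value was higher in replicate 1 at 19 of those 21 and higher in replicate 2 at 2, site14 and site15. Their gaps were divergent in 12, tandem in 11 and convergent in 2. Neighbouring 5′ ends among them included ogt-1, the O-GlcNAc transferase gene (site9, signal 56.6), cey-1, which encodes a Y-box RNA-binding protein (site11, 55.2), and ztf-27, a zinc finger gene (site13, 51.9). Others were din-1, a corepressor of the nuclear receptor DAF-12 (site15, 49.0), siah-1, a ubiquitin ligase gene (site16, 48.0), adh-1, an alcohol dehydrogenase gene (site19, 46.9), and the mitochondrial ribosomal protein gene mrpl-20 (site20, 46.8). Site12, 5920 bp from snpc-3.2, had a signal of 52.3 pooled and 49.4 in replicate 1, with no replicate 2 summit within 200 bp. No family of gene functions was tested among these neighbours.

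The replicate lists gave a second look at the sites, although both went into the pooled list that chose them. Of the 474 sites, 260 (54.9%, exact 95% interval 50.2 to 59.4) had a summit within 100 bp in both replicate lists, beside 60% of all 3000 regions. Replicate 1 alone listed 152, replicate 2 alone listed 44, and 18 were in neither. The replicate 1 list held 86.9% of the sites and the replicate 2 list 64.1%, close to 88.6% and 68.8% of all 3000 regions. Being among the 3000 highest regions of both replicates was less common, with 70 sites (14.8%), beside 24.7% of all 3000. Of the 260, replicate 1 gave the higher value at 212 (81.5%) and replicate 2 at 48. Replicate 1 was likewise higher at 82.7% of those among all 3000 regions that were listed in both, so this is not particular to the sites. The sites' order differed between the lists, with a Spearman correlation of 0.078 and a Pearson correlation of 0.157 on log2 values across the 260. These sites share the same 2 lists and control and were kept for their pooled value, which limits what the coefficient shows. Replicate 1 ranged from 5.17 to 62.2 and replicate 2 from 2.75 to 37.4 where listed, with depth unknown for both.

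**Figure D1:**
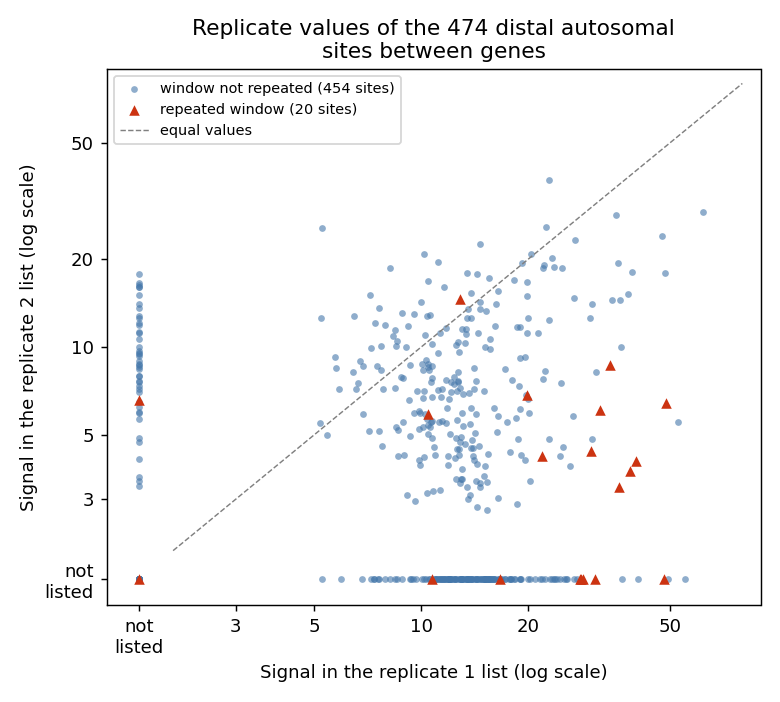
Signal of each of the 474 sites in the replicate 1 list (x axis) and the replicate 2 list (y axis), both on log scales, with sites lacking a summit within 100 bp set at "not listed". Most points lie below the dashed line of equal values, and 18 of the 20 sites in repeated windows were listed in replicate 1 against 12 in replicate 2.

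When the same rule was applied to each replicate list alone, replicate 1 gave 447 sites and replicate 2 gave 449. Of those chosen in replicate 1, 148 (33.1%, 28.8 to 37.7) had a summit in the replicate 2 list, and of those chosen in replicate 2, 136 (30.3%, 26.1 to 34.8) had one in replicate 1. Here the second list played no part in the choice. The same shares were 22.0% and 19.6% for distal autosomal sites inside genes, 46.7% and 42.6% for promoter sites, and 74.9% and 79.3% for sites at small RNA genes. They were 29.0% and 27.7% for distal X sites between genes, and 39.9% and 36.6% for all 3000 nuclear regions of each list. The intervals of autosomal sites between genes lay below those of promoter and small RNA sites and above those of sites inside genes, and overlapped those of distal X sites between genes. Intervals treat sites as independent, and the difference between classes was not tested otherwise.

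The base composition at the summits was uneven. Median GC content of the 101 bp window was 40.6% (38.6 to 41.6), against 33.7% over all 19285590 bases that meet the location conditions and 32.7% at the 5077 lower-ranked regions that meet them. Sites inside genes had 37.6% and promoter sites 43.6%. Within the sites, mean GC was 40.4% ± 10.04 (SD, n = 474) at the summit and 36.6% ± 6.82 in windows 200 bp to either side, and it was higher at the summit in 295 sites, lower in 172 and equal in 7. GC content over 50% was found in 87 sites (18.4%) and in 4.01% of eligible bases. It was also found in 23.0% of all 3000 regions and 21.6% of distal X sites between genes, whose median GC content was 41.6% in both cases. Single sites ran from 10.9% to 65.3% GC, so the set also contains strongly AT-rich summits.

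The most frequent difference in sequence was a run of alternating G and A. GAGAGA, read on either strand, was one of 16 words searched at the summits, and it was held by 116 of the 474 windows (24.5%, 20.7 to 28.6). The flanking windows held it at 12.4%, lower-ranked regions at 7.11% and all eligible bases at 5.55%. Distal sites inside genes held it in 15.2% (12.4 to 18.3), promoter sites in 18.1% (16.1 to 20.3), distal X sites between genes in 13.7% (8.43 to 20.5) and sites at small RNA genes in 10.8%. Over all 3000 regions the share was 17.1%. The interval of the 474 sites lay above those of the other classes just named, but this order depended on the choice of sites. Chosen from the replicate 1 list alone, the sites held GAGAGA in 18.8% (15.3 to 22.7), and from the replicate 2 list alone in 25.4% (21.4 to 29.7). The first interval overlapped the promoter, genic and X intervals, which are of sites chosen from the pooled list. Under the other reading of the selection, the 3000 highest regions that meet the location conditions, the share was 10.5%. That is below those 3 classes, but the classes were taken from the 3000 highest nuclear regions only. The other reading reaches much lower ranks, so the shares are not alike in rank. Other 6-base words that gained most over the flanks included GAGAAA, with 124 summits against 77.5 per flank, and AGAGAC, with 80 against 36.5. AAAAAA was rarer at the summits, with 173 summits against 224.5 per flank.

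Other leading 6-base words were CGTCTC, with 66 summits against 31 per flank, and GACGCA, with 49 against 17.5. With GAGAGA-like words these overlap in a longer word, GAGACGCAG, which was chosen after these values were seen. It was held by 36 of the 474 windows (7.59%, 5.38 to 10.4), against 2.22% per flank, 1.14% of lower-ranked regions and 0.517% of eligible bases. Distal sites inside genes held it in 3.07% (1.86 to 4.75), promoter sites in 4.86% (3.77 to 6.15) and sites at small RNA genes in 0.601%. Distal X sites between genes held it in 5.76% (2.52 to 11.0). The intervals of these X sites and of promoter sites overlapped that of the autosomal sites between genes. Of the 36, 16 also held GAGAGA. Sites chosen from the replicate 1 list alone held it in 5.37% (3.47 to 7.88) and those chosen from the replicate 2 list alone in 6.24% (4.18 to 8.89). Both intervals overlapped those of promoter sites, distal X sites between genes and sites inside genes, which were chosen from the pooled list. It was found on each autosome, with 10 sites on I, 3 on II, 10 on III, 8 on IV and 5 on V.

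Counted in bins of 50 bp, both words were more frequent within 100 bp of the summit than at the edges. Both had stood out by their gain over the flanks at the summits of these autosomal sites between genes. GAGACGCAG was put together from words with such gains. The rise of both words at these summits therefore largely repeats that choice and is description only. GAGAGA was found in 14.98% of sites in the bin just left of the summit and 16.2% just right, against 3.38% and 3.59% at the outermost bins, and its highest share, 18.8%, was in the bin centred 75 bp to the left. GAGACGCAG was found in 3.80% and 4.43% of sites in the bins next to the summit, against 0.422% at either edge. At the lower-ranked regions GAGAGA stayed between 3.09% and 4.33% in every bin. GAGACGCAG at the lower-ranked regions ran from 0.256% to 0.670%. Sites inside genes had a peak of the same kind, with GAGAGA in 11.15% of sites just right of the summit and in 5.01% and 2.42% at the outermost bins, and GAGACGCAG in 2.26% against 0.323% and 0.162%. The centred peak was thus shared with sites inside genes. Promoter sites also held both words more often at the summit than in windows 200 bp to either side. Their shares were 18.1% against 9.49% for GAGAGA and 4.86% against 1.08% for GAGACGCAG. At distal X sites between genes they were 13.7% against 10.8% and 5.76% against 1.44%.

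**Figure D2:**
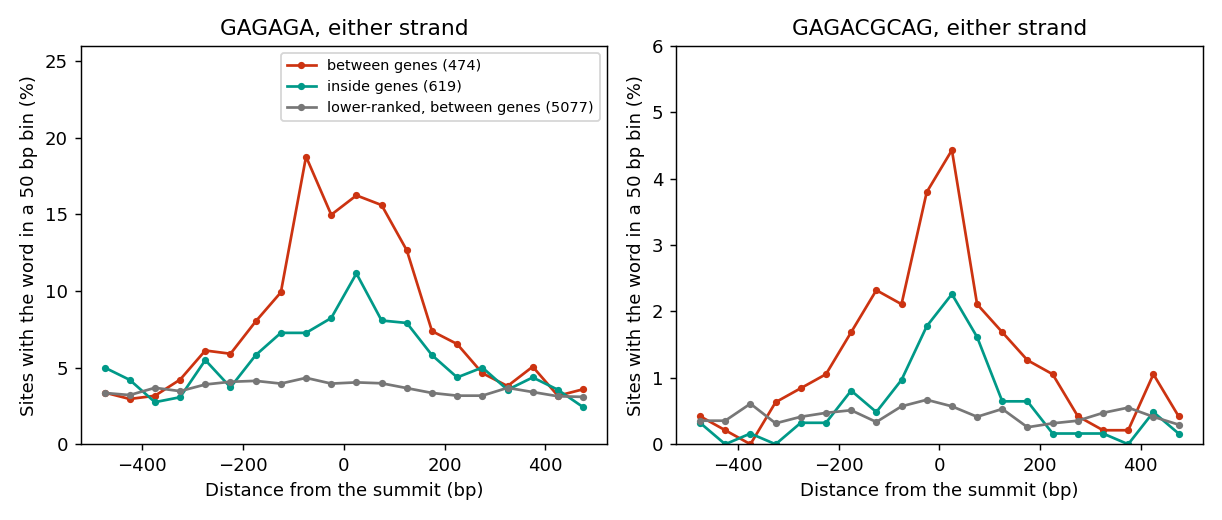
Share of sites (y axis, %) with GAGAGA (left) or GAGACGCAG (right) on either strand in each 50 bp bin by distance from the summit (x axis, bp), for the 474 distal autosomal sites between genes, the 619 inside genes and the 5077 lower-ranked regions between genes. The 474 sites reach 18.8% for GAGAGA and 4.43% for GAGACGCAG, and the lower-ranked regions stay near 4% and under 1%. Both words stood out by their gain at the summits of the 474 sites, so the rise there largely repeats that choice.

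The 36 sites with GAGACGCAG had a median pooled signal of 24.9, against 19.2 at the other 438, and 27 of them were listed in both replicates, as were 233 of the others (53.2%). Pooled signal chose the sites and the word was picked from them, so this contrast is description only. Site4, described above, was one of the 36. Site14 (signal 51.7), 10696 bp from the 5′ end of Y37A1B.7, had 22.8 in replicate 1 and 37.4 in replicate 2, where it ranked 32 among nuclear regions. Site29 (42.7), near pptr-1, which encodes a regulatory subunit of a protein phosphatase, had 29.7 and 12.6. Site34 (40.4), near T19C3.4, had 22.0 and 18.6. The 4 sequences are shown to place the word within each window, with GAGACGCAG or its reverse complement in capitals. The windows are chrIV:16492395-16492495 for site4, chrIV:14033034-14033134 for site14, chrV:16356025-16356125 for site29 and chrIII:623874-623974 for site34, each on the plus strand of WBcel235 from RefSeq.
site4: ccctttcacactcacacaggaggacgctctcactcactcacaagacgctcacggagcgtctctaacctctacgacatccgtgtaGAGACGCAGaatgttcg
site14: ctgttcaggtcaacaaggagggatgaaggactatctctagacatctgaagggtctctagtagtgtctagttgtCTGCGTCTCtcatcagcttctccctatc
site29: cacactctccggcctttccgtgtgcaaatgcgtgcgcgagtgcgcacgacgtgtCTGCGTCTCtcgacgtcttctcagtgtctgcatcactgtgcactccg
site34: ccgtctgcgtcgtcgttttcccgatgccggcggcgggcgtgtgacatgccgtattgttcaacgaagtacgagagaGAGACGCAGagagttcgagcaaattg
In site34 the word follows directly on a GA run. In site14 and site29 it is read on the minus strand.

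GA runs were also present at sites far from any protein-coding 5′ end. Site107 (signal 25.7; 16.4 in replicate 1 and 5.803 in replicate 2) lay 10345 bp from the nearest protein-coding 5′ end, that of ari-2, and within 200 bp of the piRNA gene 21ur-9498. Site204 (20.2; 13.0 in replicate 1, not listed in replicate 2) lay 11541 bp from the 5′ end of K01F9.2 and was the farthest of all 474 sites from a protein-coding 5′ end. Both windows are shown for this reason, with capitals for GAGAGA and for GTTCNANNC on either strand, at chrIV:5561429-5561529 and chrIII:8865537-8865637 on the plus strand of WBcel235 from RefSeq.
site107: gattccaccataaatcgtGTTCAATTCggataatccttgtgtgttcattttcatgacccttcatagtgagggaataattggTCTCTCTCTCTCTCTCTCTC
site204: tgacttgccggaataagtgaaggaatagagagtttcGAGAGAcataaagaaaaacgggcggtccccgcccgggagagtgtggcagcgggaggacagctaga
The window of site107 ends in a long CT run, the reverse complement of a GA run. The next farthest by the same measure were site419, 11303 bp from the 5′ end of the receptor gene npr-37, site314, 10973 bp from that of tpra-1, site307, 10947 bp from that of egl-27, and site450, 10723 bp from that of aakg-1, an AMP-activated kinase subunit gene. Their pooled signals lay between 16.3 and 18.2, in the lower part of the range.

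The sites were split into 5 groups of 94 or 95 by pooled signal. From the highest to the lowest group, median GC content was 47.5, 44.6, 36.6, 35.6 and 36.1%. The share with GAGAGA was 36.8, 37.9, 24.2, 13.7 and 9.57%, and that with GAGACGCAG was 17.9, 6.32, 5.26, 6.32 and 2.13%. The share listed in both replicates was 76.8, 68.4, 51.6, 41.1 and 36.2%, which partly follows from the choice by pooled signal. GC content and GAGAGA were thus higher in the upper 2 groups than in the lower 2. Pooled signal also chose the sites, and no other class was split in this way, so these differences are description only.

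**Figure D3:**
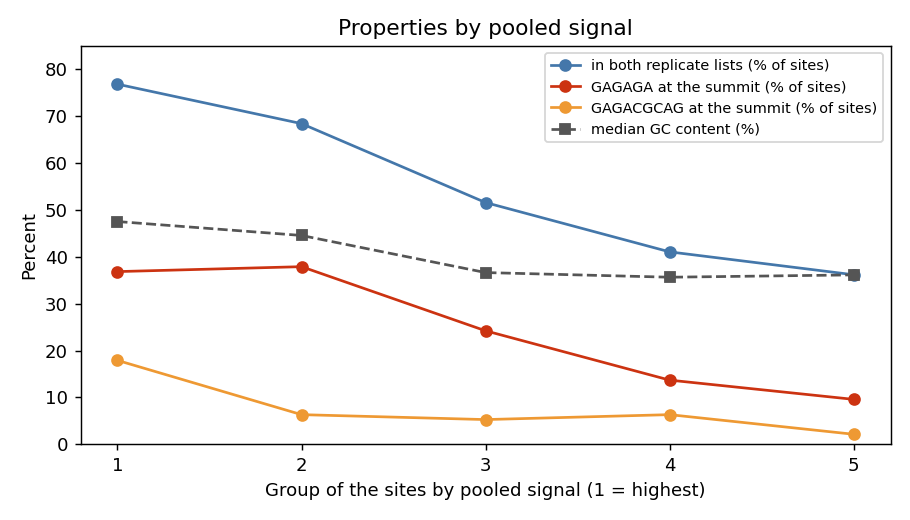
The 474 sites in 5 groups by pooled signal (x axis, 1 is the highest, 94 or 95 sites each), with the percent of sites listed in both replicates, holding GAGAGA or holding GAGACGCAG at the summit, and the median GC content (%). Shares in both replicates go from 76.8% to 36.2% and GAGAGA from 36.8% to 9.57%.

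The other words searched differed in direction from the background. TTAAAA was held by 17.5% of windows, against 28.4% of eligible bases, and TATAAA by 5.49%, against 12.3%. CGCGCA was held by 3.59% (2.10 to 5.68), against 1.397% of eligible bases and 10.5% of promoter sites. GGGCGG was held by 3.80% (2.27 to 5.94), against 1.69% of eligible bases, and CACGTG by 2.74% (1.47 to 4.64), against 1.42%. Over all 3000 regions the shares were 19.9% for TTAAAA, 8.4% for TATAAA, 6.83% for CGCGCA, 5.67% for GGGCGG and 2.13% for CACGTG. The interval for CGCGCA at the sites lay below that share, and those for GGGCGG and CACGTG contained it. The B box word GTTCNANNC, the internal promoter element of tRNA genes, was held by 3.16%, against 3.31% of eligible bases and 43.5% of sites at small RNA genes. CGAACC, part of the same element on the other strand, was held by 1.27%, against 31.2% at small RNA genes. No site shared a run of 20 or more bases with an annotated tRNA, snoRNA, snRNA or miRNA gene. Such runs were also rare at lower-ranked regions (0.473%), sites inside genes (0.646%) and promoter sites (0.224%). Sites at small RNA genes had them in 69.7%, but their summits lie within 200 bp of such genes by definition. Their shares of these runs and of the B box words thus follow in part from how the classes were defined. At 5.49% of the sites the shared run reached 16 bases, against 4.47% of lower-ranked regions. Each share is a description of these letters and of no factor.

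Repeated sequence set a small group of sites apart by their replicate values. A window counted as repeated if at least 50% of its 32-base words were also found elsewhere in the genome. This held for 20 sites (4.22%, 2.60 to 6.44), against 15.7% of eligible bases and 1.497% of lower-ranked regions. The share was close to that of all 3000 regions (5.13%), sites inside genes (4.04%) and distal X sites between genes (4.32%). The 20 had a median of 29.2 in replicate 1 (18 listed) and 5.996 in replicate 2 (12 listed), whereas the other 454 had 13.1 and 7.60. Where both listed a repeated site, replicate 1 was higher at 10 of 11, and it was higher at 202 of the 249 other sites listed in both. The thresholded list held 11 of the 20. Among sites chosen from replicate 2 alone, only 0.668% of windows were repeated, against 4.92% among those chosen from replicate 1 alone. How the reads that match several places were treated is not given in the sources used here, and its part in these values was not tested.

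Of the repeated sites, 7 shared 32-base words with each other and formed the only family of 4 or more. They were site6, site17, site22, site28, site35, site36 and site44, and all 7 had between 28.2 and 48.6 in replicate 1. In replicate 2, 6 were listed with 3.30 to 8.65 and site44 was not listed. Replicate 1 also had the higher median over all 3000 regions where listed, with 14.3 against 8.74 in replicate 2. The 7 sites share sequence, so they are not independent. Their median GC content was 30.7%, and none held GAGAGA or GAGACGCAG. One of them is shown for its AT-rich sequence, which holds none of the marked words. It is site17 at chrIII:10958310-10958410, on the plus strand of WBcel235 from RefSeq, 4852 bp from the immunoglobulin-domain gene zig-5. Its signal was 47.3 pooled, 38.6 in replicate 1 and 3.75 in replicate 2.
site17: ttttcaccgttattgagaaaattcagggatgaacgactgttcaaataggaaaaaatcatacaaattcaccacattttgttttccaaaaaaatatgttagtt
Of its 32-base words, 74.3% were found elsewhere in the genome, and the whole window is soft-masked in the RefSeq assembly.

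The strongest of the family, site6 (chrI:10821334-10821673), 1859 bp from C35E7.5, had 59.9 pooled, 48.6 in replicate 1 and 6.40 in replicate 2. Site28 (chrI:14308993-14309332) had 43.4 pooled, 35.9 in replicate 1 and 3.30 in replicate 2, the lowest replicate 2 value in the family. Both thus had a high pooled value carried mainly by replicate 1.

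The sites were spread unevenly over the autosomes. Per Mb of eligible bases there were 40.02 sites on chromosome I, 34.9 on III, 25.8 on II, 19.2 on IV and 14.9 on V. Chromosome I held 23.6% of the sites (19.9 to 27.7) on 14.5% of the bases, and chromosome V held 16.2% (13.0 to 19.9) on 26.7%. With each autosome cut into 3 equal parts, the central part held 33.5% of sites (29.3 to 38.0), close to the 30.4% of its bases. Sites were thus densest on I and III and sparsest on V.

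**Figure D4:**
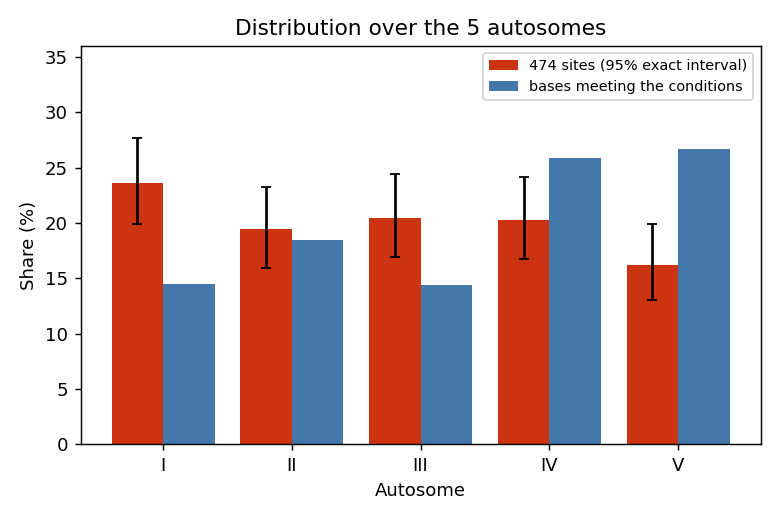
Share of the 474 sites (red, with exact 95% intervals) and of the bases that meet the location conditions (blue) on each of the 5 autosomes, as percent on an axis from 0. Chromosomes I and III hold more of the sites than of the bases (23.6% against 14.5% on I), and IV and V hold less.

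The median distance to the nearest protein-coding 5′ end was 2354.5 bp (2139 to 2594), against 2644 bp over eligible bases and 2546 bp at lower-ranked regions, which is inside that interval. The class from 1000 to 2000 bp held 41.1% of sites and 32.1% of bases, and over 5000 bp there were 13.9% and 19.9%. There were 34 sites within 1100 bp of a 5′ end, and 5 of these lay under 1000 bp from it, on its downstream side. A gene 3′ end lay within 1000 bp of 23.8% of sites (20.1 to 27.9) and of 24.1% of bases. Gaps between converging genes held 42 sites (8.86%, 6.46 to 11.8), against 17.5% of eligible bases and 13.1% of lower-ranked regions. Tandem gaps held 59.1% of sites and divergent gaps 32.1%, against 53.5% and 28.8% of bases.

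**Figure D5:**
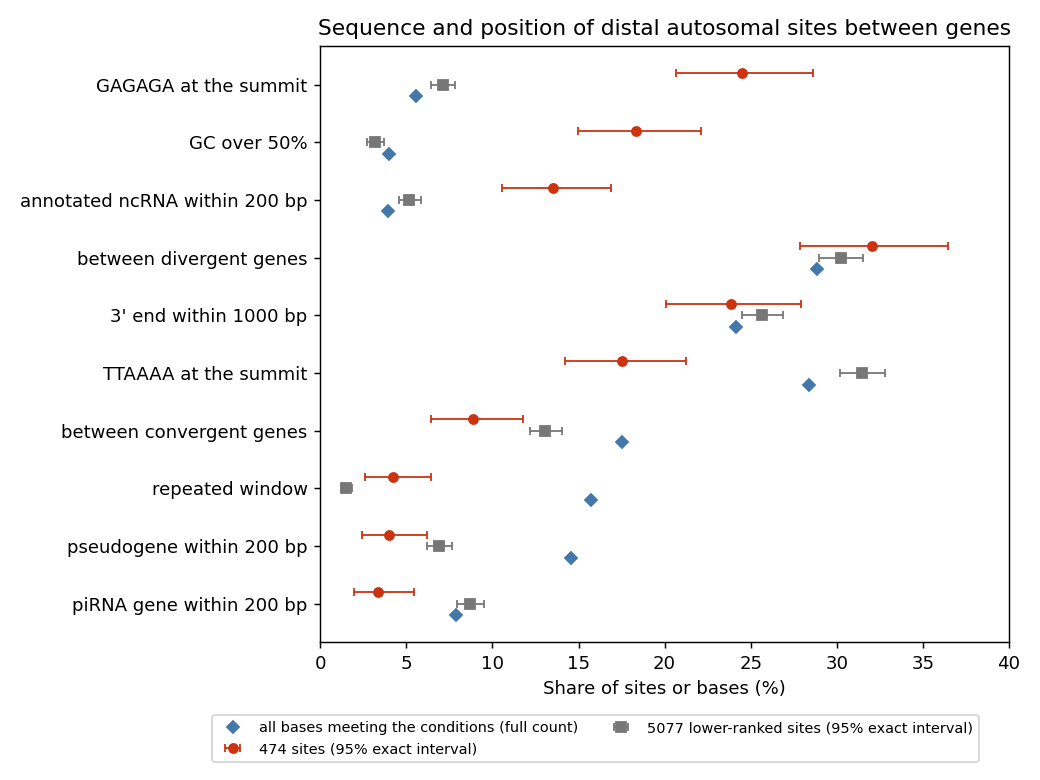
Share (x axis, %) of the 474 sites, of the 5077 lower-ranked regions that meet the same location conditions (both with exact 95% intervals) and of all bases that meet them, for 10 features of sequence and position. GAGAGA, GC content over 50% and annotated ncRNA lie to the right for the sites, and TTAAAA, convergent gaps, pseudogenes and piRNA genes to the left. Shares over all 3000 regions are not drawn, and those of pseudogenes (1.07%) and piRNA genes (1.63%) were below those of the sites.

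Annotated genes outside the protein-coding and small RNA classes lay within 200 bp of 103 sites (21.7%, 18.1 to 25.7), against 26.6% of eligible bases, and the classes differed. Genes annotated as ncRNA, a mixed class of noncoding transcripts, were near 64 sites (13.5%, 10.6 to 16.9), against 3.91% of bases and 5.18% of lower-ranked regions. The strongest was site1, near K10H10.11 and K10H10.14. The 64 sites had a median GC content of 46.5%, and 24 of them (37.5%) held GAGAGA. Pseudogenes were near 19 sites (4.01%, 2.43 to 6.19), against 14.6% of bases and 6.89% of lower-ranked regions, but near only 1.07% of all 3000 regions. The direction thus depended on the background. They were led by site10 (signal 56.0, 48.0 in replicate 1), which lay in a repeated window and had no replicate 2 summit within 200 bp.

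Genes of piRNAs, the small RNAs that guide silencing in the germline, were near 16 sites (3.38%, 1.94 to 5.42). The share was 7.90% of bases and 8.69% of lower-ranked regions, but 1.63% of all 3000 regions, so here too the direction depended on the background. A lincRNA gene was near 6 sites (1.27%), led by site2, and a pseudogenic tRNA was near 1, site180 on chromosome IV with a signal of 21.1 pooled, 17.6 in replicate 1 and none listed in replicate 2. None lay near an antisense RNA or ribosomal RNA gene, and 0 of 474 allows a share of up to 0.775%. The ncRNA class was the only one of those named whose interval lay above its share of eligible bases, but an ncRNA gene was also near 16.1% of all 3000 regions, 21.6% of distal X sites between genes and 11.06% of promoter sites.

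Gene lists were read from the symbol of the nearest 5′ end, and a site may lie between several genes. The large family of chemoreceptor genes was nearest to 5 sites (1.05%, 0.343 to 2.44), against 6.31% of eligible bases, with str-182 (site7), srg-55 (site230, signal 19.6), srz-69 (site251, 19.1) and srd-32 (site269, 18.8) as the highest. F-box and MATH genes, another large family, were nearest to none (up to 0.775%), against 2.03% of bases. Gene lists were counted only for the sites and the eligible bases, not for the other classes or the lower-ranked regions. Whether the low shares of chemoreceptor, F-box and MATH genes are particular to these sites was therefore not tested. Nuclear receptor genes were nearest to 10 sites (2.11%, 1.02 to 3.85), against 1.91% of bases, led by nhr-20 (site100, 26.2), nhr-70 (site121, 24.4), nhr-10 (site143, 22.8) and nhr-61 (site208, 20.1). Homeobox genes, which encode developmental transcription factors, were nearest to 6 (1.27%, 0.466 to 2.73), against 0.745% of bases. They included ceh-58 (site108 with 25.7 and site344 with 17.5), ceh-79 (site209, 20.1) and ceh-43 (site217, 19.9).

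The other lists had few sites. Neuropeptide genes were nearest to 4, with nlp-40 (site78, 29.0), flp-24 (site159, 22.1), flp-15 (site194, 20.5) and flp-10 (site334, 17.7), against 1.26% of bases. C-type lectin genes were nearest to 4, led by clec-91 (site132, 23.6), and cuticle collagens to 3, which were bli-4 (a convertase that processes collagens, held in that list by symbol), col-105 and col-3. Ribosomal protein genes were nearest to 2, rps-28 (site206, 20.2) and rpl-21 (site325, 17.8), and ion channel and neurotransmitter receptor genes to 2, glr-4 and lgc-42. There was 1 site each nearest to the histone gene his-67 (site385, 16.9), the chaperone gene dnj-24 (site327, 17.8) and the helix-loop-helix gene hlh-30, a regulator of autophagy (site382, 17.0). Skp1-related genes had none (up to 0.775%), against 0.0957% of bases. Each of these 9 lists had an exact interval that contained the share of eligible bases.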

How the data were processed

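The authors deposited lists of regions for ChIP-seq of K09A11.1 with GFP, on ce11, as 30000 ranked regions for each of replicate 1, replicate 2 and both pooled, and 689 thresholded regions. Per the labels, the technical libraries are 2 per biological replicate, and the deposited notes show them merged before calling. Column 7 was deposited by the authors as a signal value and column 9 as a −log10 q-value. The aligner, the caller and the threshold on reproducibility were not given in the sources used here, and depth is unknown.

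Locations were computed with Python 3.11.15, numpy 2.4.6, pandas 2.3.3 and SciPy 1.17.1 from Ensembl release 115 and the RefSeq assembly WBcel235, which is ce11. Summits within 100 bp counted as the same site. Sequence was read in windows of 101 bp. Members, words and gene lists were chosen with earlier results of these data known. The sites named are the 25 of highest signal, the 5 farthest from a 5′ end, the highest for each noncoding class and for each family of 4 or more, and up to 4 per gene list. Sites holding GAGACGCAG, and that word, were named after their values were seen. Shares have exact (Clopper-Pearson) 95% intervals and medians order-statistic intervals, which treat sites as independent and cover counting error only. The counting was checked on simulated data. No test over samples was possible with 1 group. In all, 12 alternatives were tried. The ce10 lists were not used here.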

Additional observations from a re-analysis of the deposited data

How the results depend on the processing

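Each value was recomputed under the alternatives, and 64 of 98 values stayed within the interval of the value reported. For the number of sites, that interval was a set band from 316 to 711 and not a 95% interval. Taking the 3000 highest regions that meet the location conditions, the other reading of the selection, gave 3000 sites, of which 21.4% were in both replicate lists and 2.17% in the thresholded list, with a median GC content of 33.7%, repeated windows in 1.53%, CGCGCA in 1.93%, GAGAGA in 10.5% and GAGACGCAG in 2.33%. Keeping only rows of the thresholded list left 65 sites, with 78.5% in both replicate lists, 26.2% in the central part of the autosomes, a median GC content of 47.5%, repeated windows in 16.9%, CGCGCA in 7.69%, GAGAGA in 35.4% and GAGACGCAG in 16.9%. A promoter window of 2000 bp left 309 sites, with a median 5′ distance of 3188 bp and convergent gaps in 13.3%. Choosing sites from 1 replicate list only, so without the other replicate, gave 30.3% to 33.1% in both lists, 9.13% to 13.9% in the thresholded list, 31.5% to 39.2% in the central part of the autosomes, a median GC content of 37.6% to 39.6%, repeated windows in 0.668% to 4.92%, GAGAGA in 18.8% to 25.4% and GAGACGCAG in 5.37% to 6.24%. The share in both lists was 32.3% with summits matched within 50 bp and 72.6% within 200 bp. Windows of 25 bp either side gave GAGAGA in 14.98% and GAGACGCAG in 3.59%, and windows of 100 bp gave 40.7% and 11.4%, with the B box word in 5.70%, since longer windows hold more words. The alternatives for GAGAGA and GAGACGCAG were added after seeing the data.

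No paired analysis was possible because all samples form 1 group. The lists carry no counts, so no error of a single signal value is given, and with 2 replicates a spread between them rests on 1 difference. Neighbouring and repeated sites are not independent, so the intervals are too narrow. Most of the sites had a q-value above 0.05, and the values describe a ranked list rather than a set of called peaks.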

Other observations

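Some of the sites lay close to each other, with 16 pairs of neighbouring summits within 300 bp. Site4 and site82 (signal 28.4, 12.9 in replicate 1, not listed in replicate 2) both lay upstream of rho-1, at 3424 and 3632 bp. Site108 and site344 both lay upstream of ceh-58, at 3905 and 4117 bp, and had GC contents of 19.8% and 43.6%. Site59, 1036 bp from the 5′ end of let-92, a protein phosphatase catalytic subunit gene, had a pooled signal of 31.9 and a summit in neither replicate list within 100 bp. Within 200 bp both lists had a summit, with 19.0 in replicate 1 and 19.2 in replicate 2, and site59 was a row of the thresholded list. These sites were named after their values were seen.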
